A study of Mus musculus with 11 samples.

Results

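The cholesterol synthesis and SREBP2 genes described here are a set of 8 genes chosen by name: the synthesis enzymes Hmgcs1, Idi1, Fdft1, Sqle, Lss and Cyp51, the transcription factor gene Srebf2 and the SREBP regulator gene Insig1. Of the 12787 genes with a row in the table used, 7 were members of the set, and Idi1 had no row and was not analysed here. The genes were measured by RNA sequencing of whole gonadal white adipose tissue (WAT) from male C57BL/6J mice, with 1 library per mouse. The HFD control group held 5 mice kept on a 60% high fat diet, labelled as vehicle, and the HFD + IMC group held 6 mice on the same diet with 0.06% w/w iodomethylcholine (IMC), which blocks the microbial enzyme that releases trimethylamine from choline. Both groups had the diet for 20 weeks, so the comparison is between obesogenic diets with and without the inhibitor and holds no lean mice. The sixth control mouse was dropped by the submitters for quality, and the labels give no age, cage, feeding state or hour of collection for single mice.

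Cholesterol is built from acetyl-CoA through mevalonate, the isoprenoids, squalene and lanosterol. SREBP2, the product of Srebf2, is held in the endoplasmic reticulum with its escort SCAP while INSIG proteins and sterols are present, and it moves to the Golgi for cleavage when sterols fall. Its cleaved form turns on the genes of this route, whereas SREBP-1c from Srebf1 is better known for the genes of fatty acid synthesis, and adipose tissue holds a large pool of free cholesterol.

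The 250 bases upstream of the RefSeq start were found for 5 of the 7 measured members (assembly GRCm38.p6). Those of Hmgcs1, Insig1 and Srebf2 are shown because the values of these 3 genes did not overlap between the groups. They are written 5′ to 3′ on the strand of the gene, with capitals for matches on either strand to TCACNCCA, the core of a sterol element, and to CCAAT, the box bound by NF-Y. The Hmgcs1 sequence lies at chr13:119690101-119690350 on the plus strand, the Insig1 sequence at chr5:28071162-28071411 on the plus strand and the Srebf2 sequence at chr15:82147019-82147268 on the plus strand.
Hmgcs1: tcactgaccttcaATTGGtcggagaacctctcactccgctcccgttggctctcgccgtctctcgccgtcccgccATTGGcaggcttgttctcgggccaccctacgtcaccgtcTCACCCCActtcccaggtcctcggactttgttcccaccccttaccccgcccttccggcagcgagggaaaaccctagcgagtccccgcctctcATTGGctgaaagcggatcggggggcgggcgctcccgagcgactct
Insig1: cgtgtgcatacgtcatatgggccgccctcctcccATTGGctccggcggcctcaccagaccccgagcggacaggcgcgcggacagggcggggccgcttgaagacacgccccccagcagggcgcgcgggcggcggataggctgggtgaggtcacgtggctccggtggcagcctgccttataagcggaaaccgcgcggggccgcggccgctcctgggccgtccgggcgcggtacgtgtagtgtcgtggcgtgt
Srebf2: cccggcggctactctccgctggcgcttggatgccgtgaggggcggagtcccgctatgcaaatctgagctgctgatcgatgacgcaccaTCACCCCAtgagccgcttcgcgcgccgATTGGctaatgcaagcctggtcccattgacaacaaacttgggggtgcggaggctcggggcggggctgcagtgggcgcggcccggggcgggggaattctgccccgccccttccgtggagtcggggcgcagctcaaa

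The TCACNCCA core stood 137 to 130 bases before the start of Hmgcs1 and 162 to 155 bases before that of Srebf2, and it was in 2 of the 5 member sequences against 3.67% of the 32851 upstream sequences of the same length in the table. No match to it was in the shown sequence of Insig1 or in those of Lss and Cyp51. CCAAT was in 5 of 5 member sequences, with 3 matches in Hmgcs1 and 1 in each of the others, against 33.8% of all upstream sequences. The GC box GGGCGG was also in 5 of 5, against 32.7%, and the E-box CACGTG was in 1 of 5, that of Insig1, against 6.02%. No match to one of these motifs overlapped a match to another in the member sequences. The motifs were written down with these sequences already seen, and a match is a run of letters and not a shown binding site.

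**Figure D1:**
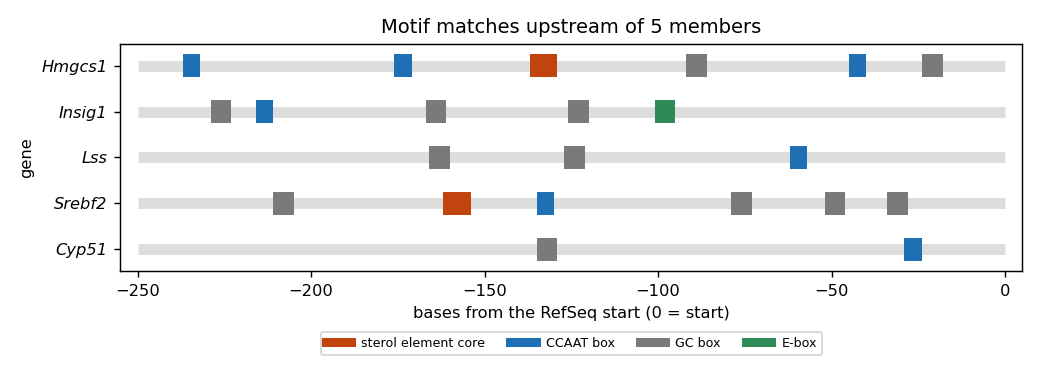
Positions of motif matches in the 250 bases before the RefSeq start of 5 member genes, with distance from the start in bases on the x axis and 1 line per gene. Markers stand for matches on either strand, and the sterol element core is marked only in Hmgcs1 and Srebf2.

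In IMC-treated mice, Insig1 was 1.88 times and Hmgcs1 1.63 times its HFD level, Lss was 1.23 times its HFD level, and Srebf2 was lower at 0.878 times. Sqle, Fdft1 and Cyp51 did not pass the test. By limma on log2 CPM, with adjustment over all genes, 3 of the 7 members were higher and 1 was lower at an adjusted p of 0.05. Over all 12787 genes, 40.9% passed the same test, 20% as higher and 21% as lower, so 4 of 7 members, or 57.1%, stands beside a large background. The median log2 fold change was 0.11 over the members and -0.03 over all genes. The groups did not overlap for 3 of the 7 members, against 23.1% of all genes, with 2 of them higher, against 12.5%, and 1 lower, against 10.5%. These libraries hold RNA of whole tissue, so more cells of a type and more RNA per cell cannot be told apart in any of these values.

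**Figure D2:**
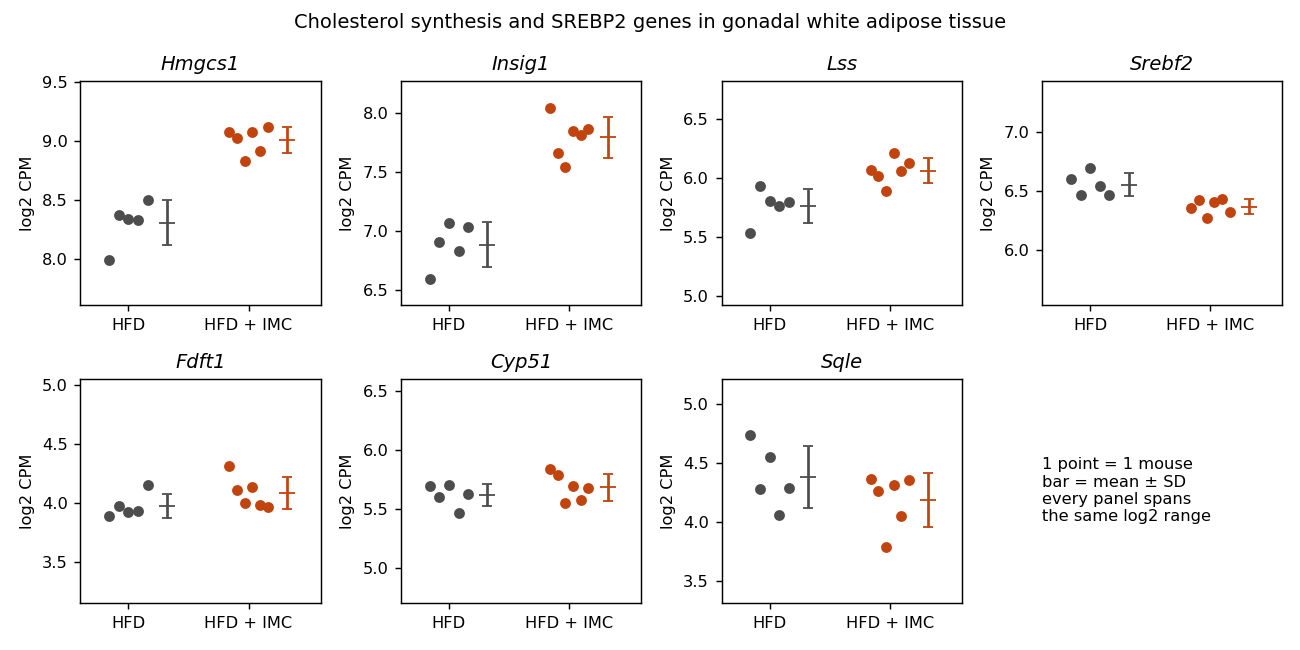
Level of each measured member in every mouse, in log2 CPM on the y axis, with HFD control mice and IMC-treated mice side by side, points for mice and bars for the mean and SD. Insig1 and Hmgcs1 are higher in each of the 6 IMC-treated mice than in any of the 5 HFD mice, Srebf2 is lower in each of them by a narrow margin, and the other members overlap.

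Insig1 encodes a membrane protein of the endoplasmic reticulum that retains the SREBP and SCAP complex, and it is itself a gene that SREBPs turn on. Its level in the HFD mice was 6.59, 6.90, 7.06, 6.83 and 7.03 log2 CPM, and in the 6 IMC-treated mice it ran from 7.54 through a median of 7.83 to 8.04. Every treated mouse was above every control mouse, and the nearest mice of the groups were 0.47 log2 CPM apart. The log2 fold change was 0.91 (SE 0.10, 95% interval 0.70 to 1.12), with a limma adjusted p of 3.5e-05. It ranked 237 of 12787 genes when ordered by log2 fold change from the top. The long noncoding gene Gm35223 overlaps Insig1 in the annotation.

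Hmgcs1 encodes the cytosolic HMG-CoA synthase, an enzyme of the early mevalonate route. It had 7.99, 8.37, 8.33, 8.33 and 8.50 log2 CPM in the HFD mice and between 8.83 and 9.12 log2 CPM in the IMC-treated mice, with a median of 9.05. The groups were apart by 0.33 log2 CPM, a gap wider than the SD of 0.19 in the HFD mice and of 0.11 in the treated mice. Its log2 fold change was 0.70 (SE 0.08, 95% interval 0.52 to 0.88), with a limma adjusted p of 6.3e-05, and it ranked 499 by log2 fold change.

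Lss encodes lanosterol synthase, the enzyme that closes the sterol rings. It had 5.53, 5.93, 5.80, 5.76 and 5.79 log2 CPM in the HFD mice and between 5.89 and 6.21 log2 CPM in the IMC-treated mice, with a median of 6.06. The groups met at their edge, where the highest control mouse, HFD mouse 2, lay above the lowest treated mouse. The log2 fold change was 0.30 (SE 0.07, 95% interval 0.15 to 0.45), with a limma adjusted p of 0.00504 and a two-sided exact permutation p of 0.00649. Lss ranked 1897 by log2 fold change, with 14.8% of all genes at or above it.

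Srebf2, the gene of the factor that acts on this route, moved the other way. Its level in the HFD mice was 6.60, 6.46, 6.70, 6.54 and 6.47 log2 CPM, and in the IMC-treated mice it ran from 6.27 through a median of 6.38 to 6.43. Every treated mouse was below every control mouse, but the nearest mice were only 0.03 log2 CPM apart. The log2 fold change was -0.19 (SE 0.05, 95% interval -0.30 to -0.08), with a limma adjusted p of 0.0113. Of all genes, 25.2% had a log2 fold change at or below that of Srebf2. The level of the mRNA says nothing of how much SREBP2 was cleaved, which was not measured in these libraries. The microRNA gene Mir33 lies within Srebf2.

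The other 3 measured enzymes overlapped widely between the groups. Sqle, the gene of squalene epoxidase, which adds the oxygen needed for ring closure, had 4.74, 4.28, 4.55, 4.06 and 4.29 log2 CPM in the HFD mice and from 3.79 to 4.37 log2 CPM in the treated mice, with a median of 4.29. HFD mice 1 and 3 lay above all treated mice for this gene, and the other HFD mice lay among them. The Sqle log2 fold change was -0.19 (95% interval -0.47 to 0.09), with a limma adjusted p of 0.257. Fdft1, the gene of squalene synthase, had 3.89, 3.97, 3.92, 3.93 and 4.15 log2 CPM in the HFD mice and from 3.97 to 4.32 log2 CPM in the treated mice, with a median of 4.05. Its log2 fold change was 0.11 (95% interval -0.05 to 0.28), with a limma adjusted p of 0.257, and it overlaps Ctsb and Gm51283 in the annotation. Cyp51, the gene of lanosterol demethylase, had 5.70, 5.60, 5.70, 5.47 and 5.63 log2 CPM in the HFD mice and from 5.55 to 5.84 log2 CPM in the treated mice, with a median of 5.69. Its log2 fold change was 0.07 (95% interval -0.07 to 0.20), with a limma adjusted p of 0.422. The intervals leave room for a rise of Cyp51 to 1.15 times, of Fdft1 to 1.21 times and of Sqle to 1.06 times the HFD level, all below the 1.63 of Hmgcs1.

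The counting depth behind these values was ample for Hmgcs1, with 5660 to 13527 reads per mouse, and lowest for Fdft1, with 329 to 456 reads, and Sqle, with 309 to 595 reads. Libraries held 22320022 to 25155366 reads on the listed genes. Whether counting used the strand was not given in the sources used here, so the read counts of Fdft1, Lss and Insig1 may be affected, in either direction, by the genes that overlap them.

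Per length of transcript, the order of the members was set by Hmgcs1 and Insig1 in both groups. In HFD mice the level was 91.4 CPM per kb for Hmgcs1, 43.8 for Insig1, 18.5 for Srebf2, 12.5 for Cyp51, 11.6 for Lss, 7.57 for Sqle and 4.24 CPM per kb for Fdft1. Cyp51 and Lss did not differ beyond the spread of the mice, and Lss and Sqle were barely apart, at a lowest log2 level per kb of 3.31 for Lss and a highest of 3.28 for Sqle. In IMC-treated mice the level was 149 CPM per kb for Hmgcs1 and 82.2 for Insig1, followed by 16.2 for Srebf2, 14.3 for Lss, 13.1 for Cyp51, 6.62 for Sqle and 4.59 CPM per kb for Fdft1. There the ranges of Srebf2 and Lss, of Lss and Cyp51, and of Sqle and Fdft1 overlapped. These levels use 1 annotated transcript per gene and describe an order of genes, not of proteins.

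**Figure D3:**
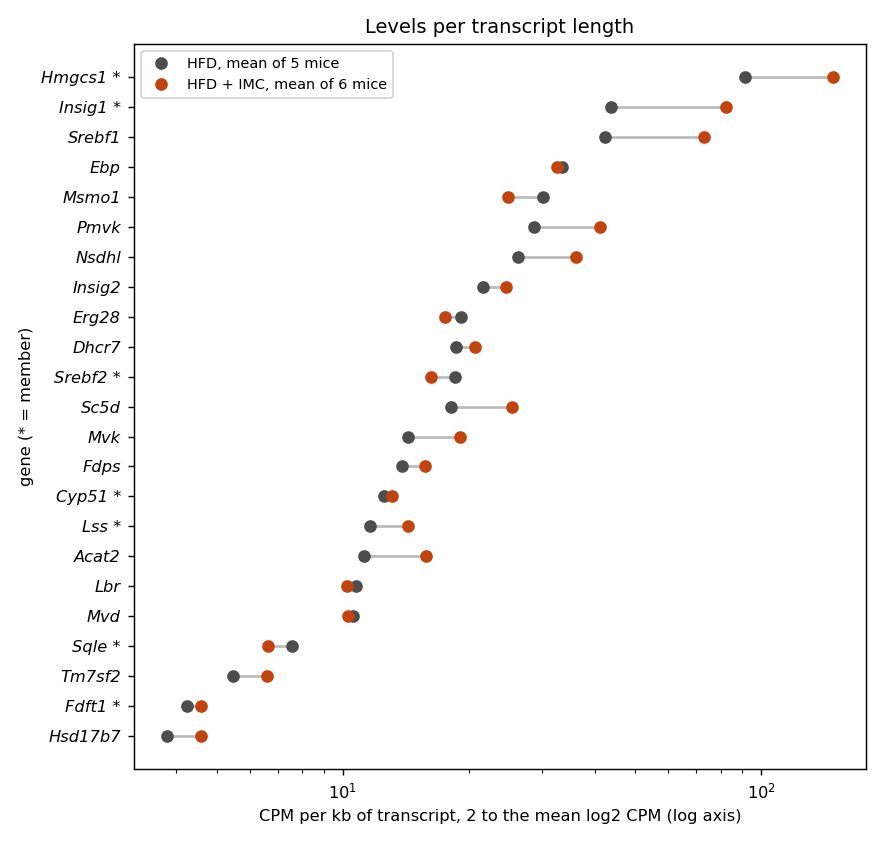
Level per length of the members (starred) and of other genes of the route and its regulators, in CPM per kb of transcript on a log axis, with 1 marker per group. Hmgcs1 goes from 91.4 to 149 CPM per kb and Insig1 from 43.8 to 82.2, while Srebf2 goes from 18.5 to 16.2.

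The rest of the route was followed through 14 further genes from thiolase onward, all of which had a row. Of these, 7 were higher, 1 was lower and 6 did not pass the limma test, with a median log2 fold change of 0.23. Thus 57.1% passed, against 40.9% of all genes, of which 20% of all genes passed as higher and 21% as lower. In the early mevalonate steps, the thiolase gene Acat2 rose (log2 fold change 0.50, adjusted p 0.00205), as did the mevalonate kinase gene Mvk (0.42, adjusted p 0.00143) and the phosphomevalonate kinase gene Pmvk (0.53, adjusted p 0.000253). For these 3 genes every IMC-treated mouse was above every HFD mouse. That held for 5 of the 14 further genes, the others being Hsd17b7 and Sc5d, against 12.5% of all genes. Fdps, the farnesyl diphosphate synthase gene, was at 0.19 (adjusted p 0.0609), and Mvd, the gene of a decarboxylase earlier in the route, was at -0.04 (adjusted p 0.718).

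After lanosterol, the sterol dehydrogenase gene Nsdhl rose by a log2 fold change of 0.47 (adjusted p 0.004), the ketoreductase gene Hsd17b7 by 0.27 (adjusted p 0.00503) and the desaturase gene Sc5d by 0.49 (adjusted p 0.000474). Msmo1, the gene of the methyl oxidase that acts beside NSDHL, was lower, at -0.28 (limma adjusted p 0.0287). It lost this call in 4 of the 11 fits that left out a mouse. Tm7sf2, a sterol reductase gene, was higher at 0.26 (adjusted p 0.0476) and kept the call in only 2 of those 11 fits. Dhcr7, a sterol reductase gene late in the route, did not pass, at 0.15 (adjusted p 0.113). The other genes that did not pass were Ebp (-0.04), Lbr (-0.08) and Erg28 (-0.12), the last listed under its older symbol. Over the genes of the route followed here, members and others together, 9 of the 19 genes followed were higher, 1 was lower and 9 did not pass. The share that passed in either direction was 52.6%, against 40.9% of all genes. By direction, 20% of all genes passed as higher and 21% as lower.

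**Figure D4:**
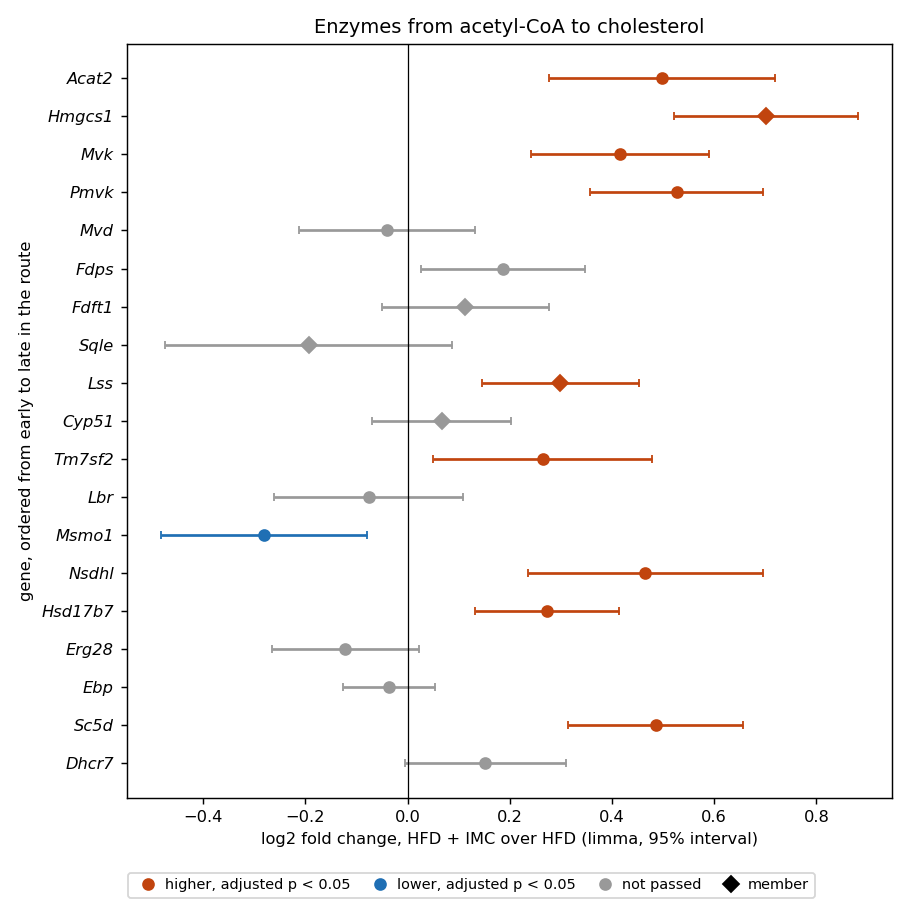
Log2 fold change of IMC-treated over HFD mice on the x axis for 19 genes from acetyl-CoA to cholesterol, listed from early to late in the route, with bars for the 95% interval of limma and diamonds for members. Genes that passed as higher are Acat2, Hmgcs1, Mvk, Pmvk, Lss, Tm7sf2, Nsdhl, Hsd17b7 and Sc5d, Msmo1 passed as lower, and genes that did not pass lie between them.

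Among 9 genes of SREBP processing and sterol sensing, 2 were higher and none was lower by limma, and 7 did not pass. That is 22.2% passed, all as higher, beside 20% of all genes as higher and 40.9% in either direction. Srebf1, the gene of the related factor, had 7.32, 7.58, 7.39, 7.47 and 7.77 log2 CPM in the HFD mice and 8.02 to 8.62 log2 CPM in the treated mice, with a median of 8.29. The groups were apart, and the log2 fold change was 0.79 (SE 0.10, 95% interval 0.57 to 1.0), with a limma adjusted p of 8.95e-05. Insig2, which encodes the other retention protein, was higher by 0.18 (limma adjusted p 0.0128), with overlap between the groups. The escort gene Scap was at 0.01 (95% interval -0.11 to 0.12), and this value turned to -0.03 when mice were scaled to their total CPM. The cleavage protease genes Mbtps1 and Mbtps2 were at 0.05 (adjusted p 0.371) and -0.18 (adjusted p 0.0949).

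Related genes were also compared with each other within each mouse. The log2 level of Srebf1 less that of Srebf2 was 0.95 ± 0.26 (SD, n = 5) in HFD mice, with a range of 0.69 to 1.30, and 1.93 ± 0.20 (SD, n = 6) in treated mice, with a range of 1.75 to 2.30. The log2 level of Insig1 less that of Insig2 was 1.02 ± 0.23 (SD, n = 5) against 1.74 ± 0.11 (SD, n = 6). The ranges of the groups did not meet in either of these 2 differences, which were chosen after the values of the genes were seen and are given with no test.

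**Figure D5:**
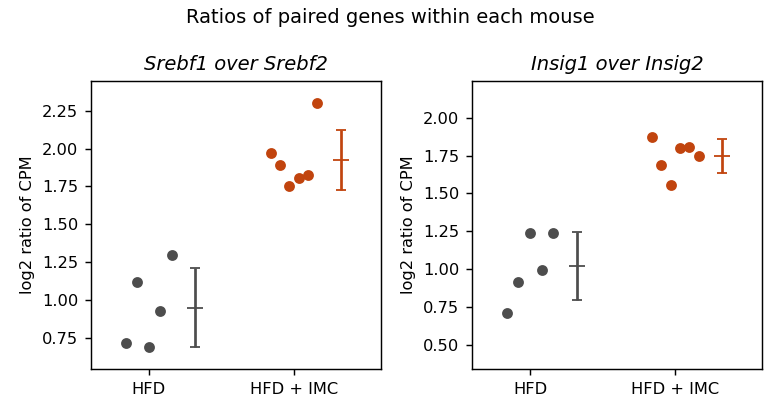
Difference in log2 CPM within each mouse for Srebf1 less Srebf2 and Insig1 less Insig2 on the y axis, with points for mice and bars for the mean and SD. The treated mice lie above the HFD mice in each panel, by a mean of 0.98 and 0.73.

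The genes of sterol uptake and transport within the cell gave no higher call by limma. Of 10 with a row, 2 were lower and 8 did not pass, with a median log2 fold change of -0.04. The 20% that passed, all as lower, stands beside 21% of all genes as lower and 40.9% in either direction. Stard3, the gene of a late endosome sterol tether, was lower at -0.29 (limma adjusted p 0.000723) with no overlap. Npc1, which encodes the late endosome and lysosome exporter, was lower at -0.26 (limma adjusted p 0.0478) and kept the call in 3 of 11 fits that left out a mouse. Its partner Npc2 was at 0.20 (adjusted p 0.0645).

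The genes of fatty acid synthesis, set beside the sterol route for comparison, were higher for 7 of 9 by limma and lower for none. Over all genes, 20% passed as higher and 21% as lower. The median log2 fold change of this list was 0.46. They included the desaturase gene Scd1 at 1.31 (adjusted p 0.000282), the carboxylase gene Acaca at 0.57 (adjusted p 0.00059) and the malic enzyme gene Me1 at 0.51 (adjusted p 0.00145). The fold of Insig1 lay within the range of this list and that of Srebf2 below all of it, at 0.20 to 1.31. No test of the difference between the lists was made.

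Markers of several cell types also differed between the groups, where over all genes 20% passed as higher and 21% as lower. All 10 adipocyte markers were higher, with a summed level of 10689 to 15648 CPM in the HFD mice and 21539 to 25973 CPM in the treated mice, a ratio of 1.83 (two-sided exact permutation p = 0.00216, the smallest the design allows, adjusted p 0.00505 over 7 lists). Of 12 macrophage markers, 9 were lower and none was higher, with 12045 to 16289 CPM in the HFD mice and 6410 to 10281 CPM in the treated mice, a ratio of 0.634 (exact permutation p = 0.00216, adjusted p 0.00505). All 4 lymphocyte and mast cell markers with a row of 10 listed were lower, at a ratio of 0.589 (exact permutation p = 0.00216, adjusted p 0.00505), as were 3 of 7 fibroblast and progenitor markers, at a ratio of 0.848 (exact permutation p = 0.013, adjusted p 0.0227). The endothelial sum had a ratio of 1.19 (exact permutation p = 0.0779), with 1 of 6 markers higher, and the mesothelial sum a ratio of 0.806 (exact permutation p = 0.258). Hepatocyte markers were at 126 to 167 CPM in the HFD mice and 158 to 258 CPM in the treated mice, a ratio of 1.31 (exact permutation p = 0.0216, adjusted p 0.0303), with 3 of 5 higher, and none of 5 epididymis markers had a row. Cyp2e1 was at 1.80 times, Serpina1a at 1.64 times on 23 to 61 reads per mouse and Apoa1 at 1.20 times, while Alb and Ttr did not pass. Which cells held the RNA of the hepatocyte markers was not tested. The part of cell composition in the changes of the members was not tested.

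Deviations from the group mean were compared between the members over the 11 mice, in 21 pairs. Sqle and Cyp51 varied together (r = 0.84, permutation p = 0.00197, adjusted p 0.0413 over 21 pairs, rho = 0.77, permutation p = 0.0129), and r was 0.66 without the 2 mice farthest from the median of Sqle. Hmgcs1 went with Lss at r = 0.81 (permutation p = 0.0126, adjusted p 0.0883, rho = 0.76, permutation p = 0.0148) and with Insig1 at r = 0.79 (permutation p = 0.00891, adjusted p 0.0883, rho = 0.84, permutation p = 0.00493). Neither passed the adjustment, and without the 2 mice farthest from the median of Hmgcs1 r fell to 0.30 and 0.38. Leaving out these mice also narrows the range of Hmgcs1, and the cause of the fall was not tested. Hmgcs1 and Sqle had r = -0.05 (permutation p = 0.898) and rho = 0.25 (permutation p = 0.491). Among single mice, IMC mouse 3 was the lowest of its group in 6 of 7 members and HFD mouse 1 was the lowest of its group in 4 and the highest in Sqle. The points share library and scaling, and these values are a description.

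The genes whose deviations went most closely with the mean deviation of the members over the 11 mice were Abcc2 (r = 0.92), Zfp934 (r = 0.91), 6430571L13Rik (r = 0.90), Pam (r = 0.89), Rwdd4a (r = 0.88), 9330159M07Rik (r = 0.86), Prmt5 (r = 0.86), Mkks (r = 0.85), Serpina1d (r = 0.84) and Pter (r = 0.84). None of these 10 was in the pathway lists. They were picked as the highest of 12780 genes over 11 mice, so their r is high in part by that choice. Without the 2 mice farthest from the median of the members' mean deviation, r ran from 0.62 for Pter to 0.92 for Prmt5. Among the genes of the 6 pathway lists, the highest value was that of Hsd17b7, at r = 0.77 and rank 56 of 12780 genes, followed by Nsdhl, at r = 0.70 and rank 131.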

How the data were processed

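RNA was isolated from gonadal WAT of 11 mice, and mRNA libraries were made with a directional kit. The authors trimmed reads with Trim Galore, checked them with FastQC, aligned them by STAR to the mm10 build using UCSC transcripts and counted them per gene. The authors removed genes with low counts and scaled libraries by the upper quartile in edgeR. The authors deposited log2 CPM values per mouse for 12787 genes. Columns of the authors' own comparison (a log2 fold change, a mean level, a likelihood-ratio score, a p-value and an FDR) were not used.

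Groups were taken from the treatment label. Log2 CPM values were compared with limma 3.58.1 in R 4.3.3 (lmFit, eBayes with trend), with group as the only factor, no filter and Benjamini-Hochberg adjustment over all genes. Single values were compared by two-sided exact permutation over all 462 splits of the mice, with a smallest p of 0.00216. Correlations used deviations from group means, permuted within the groups in all 86400 ways. Nothing in the labels says how the mice were caged or batched, so p-values cover the spread between these mice.

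Each log2 CPM was a whole number of reads plus a constant near 0.25 reads in 100% of values, to within 0.05 reads or a share of 1e-05 of the reads where that was more, which gave the reads on listed genes and the alternative with limma voom. Levels per kb used the longest RefSeq-paired transcript of GENCODE vM21 (GRCm38, the same build as mm10). Upstream sequences were from RefSeq. The alternatives were 7 other settings and the removal of each mouse. The fits were tested on simulated data.

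The members and lists were chosen with earlier results of these data known. All members are named, as are the leading 3 by p of every pathway list and the 10 genes most like the members, and other list genes may be named with their values. Of 130 listed symbols, 115 had a row. Some genes of the route and of sterol uptake are not reported here and are in none of the counts of these lists. Python 3.11.15, numpy, pandas and matplotlib made tables and figures.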

Additional observations from a re-analysis of the deposited data

Results flagged for a closer look

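In a group of 4 to 10 mice, a value was marked when its gap to the nearest mouse took up more of the group's range than Dixon's 95% critical value. Of 90 groups of values tested, 4 were marked, and chance marks about 1 in 20. Sc5d, the sterol desaturase gene, was at 6.16 log2 CPM in HFD mouse 1, below the other HFD mice at 6.45 to 6.54. Abca1, the cholesterol efflux transporter gene, was at 9.07 log2 CPM in HFD mouse 4, above the other HFD mice at 8.85 to 8.89. The mesothelial marker sum was 279 CPM in HFD mouse 3, against 202 to 218 CPM in the other HFD mice. The hepatocyte marker sum was 258 CPM in IMC mouse 2, against 158 to 194 CPM in the other treated mice. No value of a member was marked.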

How the results depend on the processing

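The counts of members, 3 higher and 1 lower, were the same in all 7 other settings and in the 11 fits that left out a mouse, and no member changed sign. The other sterol enzymes gave 0 to 1 lower calls when a mouse was left out. The SREBP processing genes gave 1 lower call under total CPM scaling and 0 to 1 without a mouse. Uptake genes gave 1 lower call under median centring, limma without trend or voom and 1 to 2 without a mouse, with 0 to 1 higher. The isoprenoid genes gave 1 to 4 higher calls without a mouse. Ester and efflux genes gave 1 higher call under total CPM scaling or limma without trend and 1 to 3 without a mouse. The causes were not tested. Scap turned to -0.026 under total CPM scaling and ran from -0.028 to 0.034 without a mouse. The ratio of endothelial sums ran from 1.14 to 1.26, with an exact permutation p of 0.0333 without HFD mouse 2, and that of hepatocyte sums from 1.20 to 1.37, with an exact permutation p of 0.0571 without HFD mouse 1, 3, 4 or 5. Counted once for each gene in each fit, 11 values of single named genes lost and 1 gained the call in the 7 other settings. When a mouse was left out, 43 lost and 8 gained it, and a gene can count more than once. None was a value of a member. No paired analysis was possible because the labels number the mice in 1 series over both groups and give no litter, cage or pair. Among the members, Fdft1, with 329 to 456 reads per mouse, and Hmgcs1, with 5660 to 13527, both had an SE of 0.08. Sqle, with 309 to 595 reads, had the largest SE, at 0.13. The part of read depth in these errors was not tested.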

Other observations

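Genes that store, release or export cholesterol changed in both directions in the gonadal WAT of IMC-treated mice. Of 10 with a row, 3 were higher and 6 were lower by limma, with a median log2 fold change of -0.24. Over all genes, 20% passed as higher and 21% as lower. Lipe, the hormone-sensitive lipase gene, which also cleaves cholesterol esters and is one of the adipocyte markers, had 9.04, 9.62, 9.19, 9.29 and 9.75 log2 CPM in the HFD mice and 10.13 to 10.40 in the treated mice, a log2 fold change of 0.90 (adjusted p 0.000107). The liver X receptor gene Nr1h3 was higher at 0.16 (adjusted p 0.034) and Abca1 at 0.16 (adjusted p 0.0491), and they kept the call in 5 and 2 of 11 fits that left out a mouse. Soat1, whose enzyme esterifies cholesterol, was lower at -0.50 (adjusted p 0.00231), Nceh1, the gene of an ester hydrolase of macrophages, at -0.50 (adjusted p 0.00184) and Lipa, the lysosomal acid lipase gene, at -0.51 (adjusted p 0.00395). Apoe was lower at -0.38 (adjusted p 0.00407), the transporter gene Abcg1 at -0.29 (adjusted p 0.0163) and Nr1h2 at -0.19 (adjusted p 0.016). The macrophage marker sum was lower in the same mice, at a ratio of 0.634, and its part in these values was not tested.

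In the branch that turns isoprenoids into ubiquinone, dolichol and prenyl groups, 3 of 9 genes were higher and none was lower by limma. The 33.3% that passed, all as higher, stands beside 20% of all genes as higher and 40.9% in either direction. The median log2 fold change was 0.14. Coq2, the prenyltransferase gene of ubiquinone synthesis, had 5.08 to 5.17 log2 CPM in the HFD mice and 5.32 to 5.46 in the treated mice, with no overlap and a log2 fold change of 0.27 (adjusted p 0.000468). Ggps1, which encodes geranylgeranyl diphosphate synthase, was at 0.25 (adjusted p 0.0231) and Fntb, the farnesyltransferase beta subunit gene, at 0.27 (adjusted p 0.0281). Fntb kept the call in 6 of 11 fits that left out a mouse.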
